A study of Rattus norvegicus with 46 samples.

Results

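Belgrade rats were compared with control Wistar rats at the bottom of the duodenal villus. The comparison held 8 of the 46 arrays of the series, chosen by their labels: the villus bottom arrays of 4 Belgrade rats (b/b) and of 4 Wistar rats (+/+). The Belgrade rats, on a Wistar background, were kept on a normal diet without iron feeding. The Wistar rats were 1 month old and on a normal diet, while the labels used here give no age for the Belgrade rats, so age and genotype cannot be told apart. All rats were fasted overnight, and a piece of duodenum 1 cm long, taken 1 cm below the pylorus, was cut in a cryostat across the crypt-villus axis. Sections from the lowest part of the villus were pooled for each rat and hybridised to 1 Affymetrix rat array. The other 14 villus bottom arrays came from Belgrade rats fed iron for 3 or 6 days and from other Wistar rats 1 month old. Those Wistar rats were made iron-deficient, or were repleted with iron for 3 days afterwards. These 14 arrays entered the statistics through the shared normalisation and the shared estimate of the spread.

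Belgrade rats carry a mutation in Slc11a2, the gene of the divalent metal transporter DMT1, which brings ferrous iron across the brush border of enterocytes and out of endosomes. The mutant transporter works poorly, so the animals absorb little dietary iron, their red cell precursors cannot use transferrin iron well, and they are anemic from birth. In the normal duodenum Cybrd1 reduces ferric iron at the brush border, Slc11a2 takes it up, and Slc40a1 (ferroportin) exports it at the basolateral side, where Heph (hephaestin) oxidises it. Low iron is known to stabilise the hypoxia-inducible factor HIF-2 alpha in enterocytes, and several of these genes are among its known targets. Cells move up from the crypt along the villus as they mature, and transcripts of iron absorption genes are normally highest away from the crypt.

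Levels are log2 of the deposited intensity plus 44 units, quantile normalised after the log, and differences are Belgrade minus control on this log2 scale. The arrays of Belgrade rats 1 and 2 were near-identical, and so were those of control rats 1 and 2. The robust SD of their differences was 0.179 in the Belgrade pair and 0.168 in the control pair over 6209 bright probe sets, against 0.260 to 0.724 in the other pairs of rats of 1 villus bottom group, out of 30 pairs. Whether each pair came from 1 animal is not known. Each was averaged and counted as 1 sample, which left 3 counted samples a group, and means ± SD are over those (n = 3 each). The median deposited intensity was 656 to 735 in the Belgrade arrays and 734 to 1012 in the control arrays, the highest in control rat 3. The trimmed mean was 2867 in control rat 3 and 2489 to 2491 in the other 7 arrays. Xist, the transcript of the inactive X chromosome, was at 14.92 in Belgrade rat 3 and at 14.65 in control rat 4, and between 6.70 and 9.26 in the others.

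Sections held other cells besides epithelium, in amounts that differed between rats. Smooth muscle markers (13 genes) had mean levels of 12.08, 12.04, 13.37 and 13.11 in Belgrade rats 1 to 4, against 12.65, 12.81, 15.72 and 13.79 in control rats 1 to 4. The fibroblast and matrix markers (22 genes) were at 12.24, 12.19, 12.82 and 12.30 in Belgrade rats and at 12.42, 12.46, 13.99 and 13.09 in control rats. The summed intensity of the muscle list was 93336 to 219030 in Belgrade arrays and 135050 to 921720 in control arrays. Control rat 3 thus stood apart from every other array in muscle and matrix, and its enteric nerve and glia markers were the highest too, at 10.54 against 8.52 to 9.28 in the other 7 arrays. Of these 3 lists (13, 22 and 16 genes) only Col6a1, a matrix collagen, separated all 4 Belgrade from all 4 control arrays (difference -0.83, adjusted p = 0.80). Over all genes 3.97% had the 4 Belgrade arrays below the 4 control arrays, and 3.74% had them above. Exocrine pancreas markers (21 genes) were at 8.46, 8.26, 12.17 and 8.87 in Belgrade rats, against 13.75, 13.73, 8.18 and 8.48 in control rats. Pancreas signal was therefore present in Belgrade rat 3 and in control rats 1 and 2, which carried 20, 21 and 21 of the 21 markers above a level of 8.99, the mean 40th percentile of the 8 arrays, and low in the other 5 arrays, with 3 to 10. The summed intensity of the pancreas list spanned 102710 to 213260 in Belgrade and 88779 to 472370 in control arrays, and its brightest gene, Zg16, also a goblet cell gene, averaged 16.48 in Belgrade and 16.33 in control rats. Tff2, a product of Brunner's glands, reached 14.33 in Belgrade rat 3 and 7.64 to 10.35 in the other 7 arrays. Enterocyte markers (10 genes) were bright in every array, at mean levels of 15.66, 15.61, 14.91 and 15.23 in Belgrade rats and 15.23, 15.24, 13.23 and 14.22 in control rats, lowest in control rats 3 and 4.

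**Figure D1:**
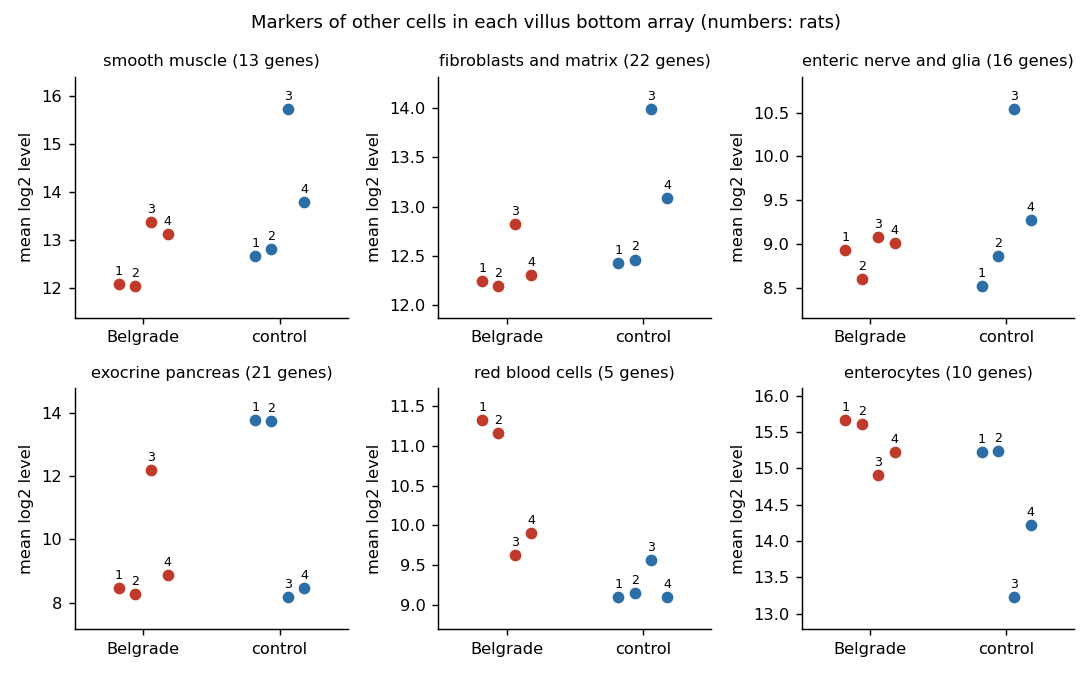
Mean log2 level of 6 marker lists in each villus bottom array, with 1 point per rat, Belgrade rats left and control rats right, numbered by rat. Control rat 3 has the highest smooth muscle (15.72), fibroblast and matrix (13.99) and enteric nerve (10.54) level and the lowest enterocyte level (13.23), while pancreas markers are high in Belgrade rat 3 (12.17) and control rats 1 and 2 (13.75 and 13.73).

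Among 31042 probe sets 1 was called at an adjusted p under 0.05, Alox15, higher in Belgrade rats (0.00322% of all), and 0 were called lower. At an unadjusted p under 0.05 there were 1891 probe sets, 991 higher and 900 lower. As a description without a test, 1058 probe sets (3.41%) had all 4 Belgrade arrays above all 4 control arrays and 954 (3.07%) had them all below. Such probe sets are referred to as apart. Because the arrays of rats 1 and 2 were near-identical in both groups, being apart rests on 3 counted samples a group. With a difference of at least 1 as well, the probe sets apart were 336 (1.08%) higher and 243 (0.783%) lower. This split moved with the scaling, to 213 higher and 423 lower with the values as deposited and 387 higher and 211 lower with median centring, beside a median difference over all probe sets of -0.16 and 0.09 in those settings and -0.01 with quantile normalisation. With 1 probe set per gene, 1 of 14217 genes was called higher (0.00703%). Of these genes 532 (3.74%) were apart and higher and 564 (3.97%) apart and lower, and the median difference was -0.03. The number called also depended on iron-repleted rat 3, whose bottom array had a mean muscle and matrix level of 14.58, against 12.51 and 12.70 in the other 2 iron-repleted rats, and entered the shared spread. The SE of Cybrd1 was 0.85 with it and 0.62 without it. Without that array 15 probe sets were called, all higher in Belgrade rats, and they belonged to Alox15, Slc11a2 (2 probe sets), Hmox1, Cyp51, Gch1, Atp7a, Egln3, Cybrd1, Bhlhe40, Alas1, Slc40a1, Nedd9, Tfrc and Alas2.

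Of the genes of brush border iron uptake, Cybrd1, the ferric reductase, showed the largest difference. Its level was 15.81, 15.81, 15.66 and 15.83 in Belgrade rats 1 to 4 and 11.94, 11.70, 11.87 and 12.01 in control rats 1 to 4. The rats of each group lay close together, and the groups were far apart. The means were 15.77 ± 0.09 in Belgrade and 11.90 ± 0.10 in control rats, a difference of 3.87 ± 0.85 (SE, adjusted p = 0.787). The fit shares its spread with the other villus bottom groups, in which Cybrd1 varied more. In a fit of only the Belgrade and control samples the SE was 0.14 and the adjusted p was 1.74e-05, and without iron-repleted rat 3 the adjusted p was 0.0160. These were the only 2 of 23 settings in which it passed, and the difference spanned 3.00 to 3.92 over all of them.

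Slc11a2, which carries the Belgrade mutation, was itself at a higher level in the mutant rats, which is a statement about transcript and not about transport. Its brighter probe set was at 16.78, 16.81, 16.68 and 16.85 in Belgrade rats and at 15.24, 15.20, 13.74 and 14.08 in control rats. Belgrade rats were all alike, whereas control rats 3 and 4 were lower than control rats 1 and 2. The difference was 2.43 ± 0.72 (SE, adjusted p = 0.80). The less bright probe set was at 14.40, 14.25, 13.65 and 14.39 in Belgrade rats and at 12.29, 12.11, 10.93 and 11.07 in control rats, a difference of 2.72 ± 0.64 (SE, adjusted p = 0.80). Without iron-repleted rat 3 the adjusted p was 0.00595 and 0.0138 for these probe sets. Neither passed in any other setting. The adjusted p was 0.146 and 0.0942 in a fit of only the Belgrade and control samples. It was 0.409 and 0.266 with rats 1 and 2 counted separately.

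The promoters of these brush border genes are shown because Slc11a2 and Cybrd1 carry the finding on iron uptake and both were apart between the groups. Each run covers 250 bases before to 50 after the annotated start in RefSeq's GRCr8 assembly, 5′ to 3′ along the gene's strand, chr7:133417739-133418038 (minus strand) for Slc11a2 and chr3:76342343-76342642 (plus strand) for Cybrd1. Capitals mark matches to the core of the hypoxia response element, searched as ACGTG and GCGTG on both strands.
Slc11a2: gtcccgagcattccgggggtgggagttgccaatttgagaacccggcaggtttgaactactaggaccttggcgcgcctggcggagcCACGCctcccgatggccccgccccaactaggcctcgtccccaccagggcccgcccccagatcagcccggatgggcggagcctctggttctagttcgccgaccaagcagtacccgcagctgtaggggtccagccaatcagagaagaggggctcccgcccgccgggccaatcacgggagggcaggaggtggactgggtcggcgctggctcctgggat
Cybrd1: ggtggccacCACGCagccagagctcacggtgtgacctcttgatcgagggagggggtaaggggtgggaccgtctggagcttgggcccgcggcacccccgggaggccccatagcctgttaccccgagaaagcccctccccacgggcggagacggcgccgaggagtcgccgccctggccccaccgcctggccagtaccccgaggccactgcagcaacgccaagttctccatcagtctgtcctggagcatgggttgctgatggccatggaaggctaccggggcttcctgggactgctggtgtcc
Each held 1 match, written here as the reverse complement CACGC, with no overlap between matches. Such a short match is common: 42.9% of the 27457 promoters of the table held at least 1. Among the 12 genes named as most clearly higher below, 11 had a promoter in the table and 8 of these held the core, and among the 12 named as lower it was likewise 8 of 11. A match describes the letters of the window only.

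Export genes of the basolateral side stood apart as well. Slc40a1, the iron exporter ferroportin, was at 15.81, 15.86, 15.69 and 15.95 in Belgrade rats and at 14.45, 14.42, 13.25 and 14.47 in control rats, with control rat 3 the lowest. The difference was 1.77 ± 0.53 (SE, adjusted p = 0.80), and its other probe sets differed by 1.70 and 1.03. Heph, the ferroxidase, was at 14.78, 14.56, 14.44 and 15.01 in Belgrade rats and at 14.36, 14.38, 13.01 and 13.33 in control rats, a difference of 1.13 ± 0.46 (SE, adjusted p = 0.80). Here control rats 1 and 2 lay just below the lowest Belgrade rat. Tfrc, the transferrin receptor that takes up iron from the blood side, was at 16.40, 16.29, 16.32 and 16.38 in Belgrade rats and at 15.47, 15.33, 15.82 and 15.79 in control rats, a difference of 0.68 ± 0.20 (SE, adjusted p = 0.80). Its less bright probe set differed by 1.78 ± 0.41 (SE, adjusted p = 0.80).

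Of 12 iron transport genes measured, 0 were called and 6 were apart with higher Belgrade levels, against 3.74% of all genes, and 0 were apart with lower levels. The sixth was Slc39a14, a metal importer of the ZIP family (difference 0.85). The list's median difference was 0.76, beside -0.03 over all genes, and 0.58 without control rat 3. Steap2, Steap3 and Steap4, metal reductases, had differences of -0.46, -0.67 and -0.11 with overlapping arrays. Of 12 genes of iron sensing and storage measured, 1 was apart and higher, Ireb2, the iron regulatory protein IRP2, at 11.17, 11.16, 10.77 and 11.73 in Belgrade rats and 9.58, 10.59, 10.14 and 10.29 in control rats. Pcbp2, an iron chaperone, was apart and lower, with a difference of -0.29 that was 0.06 with median centring. Aco1, the other iron regulatory protein, had a difference of 0.44 with overlapping arrays.

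**Figure D2:**
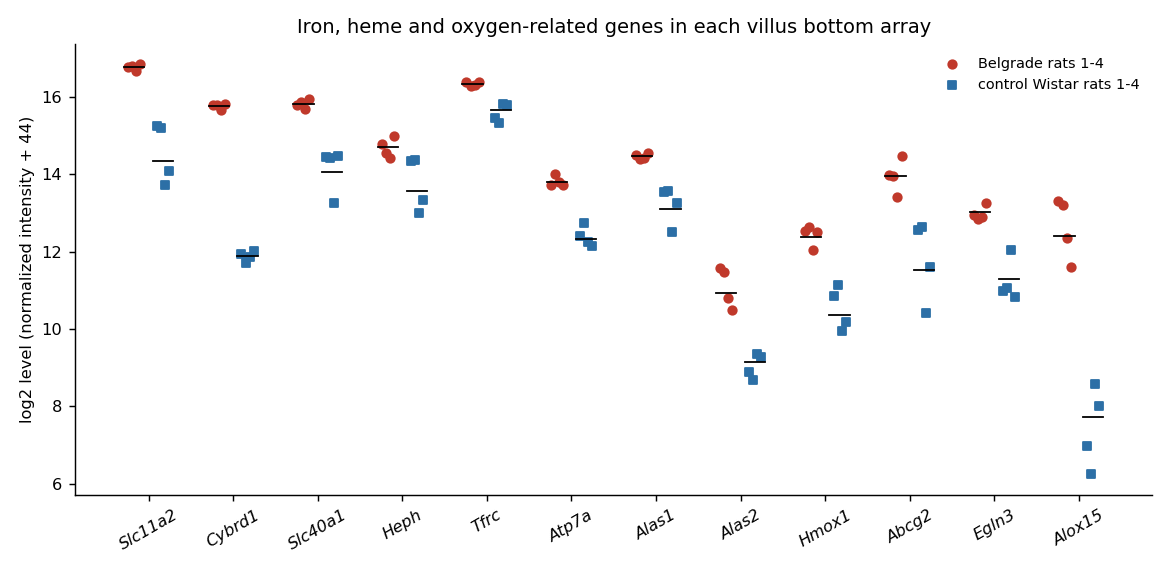
Log2 level of 12 genes in each villus bottom array, Belgrade rats (circles, left) and control Wistar rats (squares, right), with bars at the mean of the 3 counted samples. All 12 genes have their 4 Belgrade points above their 4 control points. The largest gaps are in Alox15 (difference 4.67) and Cybrd1 (3.87).

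Heme genes were mixed. Alas1, the enzyme that starts heme synthesis in most tissues, was at 14.51, 14.40, 14.43 and 14.56 in Belgrade rats and at 13.56, 13.57, 12.52 and 13.25 in control rats, a difference of 1.37 ± 0.31 (SE, adjusted p = 0.80). Hmox1, which breaks heme down and frees its iron, was at 12.54, 12.64, 12.05 and 12.52 in Belgrade rats and at 10.85, 11.14, 9.94 and 10.19 in control rats. Its difference was 2.01 ± 0.59 (SE, adjusted p = 0.80). Abcg2, a porphyrin and drug exporter, had a difference of 2.42 ± 0.85 (SE, adjusted p = 0.80). With the muscle and matrix level as a covariate Hmox1 and Abcg2 differed by 1.07 and 1.003. Those 3 were the only ones apart among 18 heme genes measured, against 3.74% of all genes apart and higher, and the list's median was 0.30.

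Alas2, the form of the enzyme in red cell precursors, was at 11.59, 11.48, 10.79 and 10.49 in Belgrade rats and at 8.89, 8.67, 9.36 and 9.27 in control rats. The groups did not overlap, and the difference was 1.80 ± 0.34 (SE, adjusted p = 0.294). Alas2 was counted among 5 red blood cell markers, whose mean level was 11.32, 11.16, 9.62 and 9.91 in Belgrade rats and 9.10, 9.15, 9.56 and 9.10 in control rats. Ahsp, the alpha-globin chaperone, was at 10.49, 10.69, 6.32 and 9.52 in Belgrade rats and at 6.69, 6.16, 7.94 and 7.13 in control rats, and Hbb, beta-globin, at 16.38, 16.34, 15.47 and 14.63 and at 14.03, 14.01, 15.95 and 14.53 in the same order. The summed intensity of the 5 markers was 27857 to 90991 in Belgrade and 17440 to 64419 in control arrays. The part of blood in the sections in the Alas2 difference was not tested. In such tissue sections fewer cells of a type and less RNA per cell cannot be told apart.

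Several genes of the response to low oxygen lay higher in Belgrade rats. Egln3, a prolyl hydroxylase that marks HIF for destruction and is itself induced by it, was at 12.94, 12.86, 12.89 and 13.25 in Belgrade rats and at 10.99, 11.07, 12.04 and 10.82 in control rats. Its difference of 1.72 ± 0.29 (SE, adjusted p = 0.108) missed the threshold. Without control rat 3, its highest control array, the difference was 2.09 and passed (adjusted p = 0.00605). No other fit that left out a Belgrade or control sample passed. The adjusted p was 0.435 in a fit of only the Belgrade and control samples. It was 0.0160 without iron-repleted rat 3 and 0.00344 with rats 1 and 2 counted separately. Vegfa, the endothelial growth factor, was at 11.60, 11.24, 11.41 and 11.91 in Belgrade rats and at 10.52, 10.43, 10.89 and 10.70 in control rats, a difference of 0.89 ± 0.24 (SE, adjusted p = 0.80). Epas1, which encodes HIF-2 alpha, was at 14.78, 14.84, 14.81 and 14.997 in Belgrade rats and at 14.11, 14.16, 14.10 and 14.36 in control rats. That narrow gap of 0.67 was seen in every array.

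The list of hypoxia-inducible genes also holds genes of the pathway itself, such as Epas1, Hif1a and Vhl. Of its 33 genes measured, 0 were called, 10 were apart and higher, against 3.74% of all genes, and 0 were apart and lower. Besides Egln3, Vegfa and Epas1 these were Ankrd37 (difference 2.04), Slc2a1, the glucose transporter GLUT1 (0.80), Mxi1 (0.69), Ndrg1 (0.71), Slc16a3, a lactate exporter (1.92), Higd1a (0.53) and Bnip3, a mitophagy receptor (0.76). For Ankrd37 control rat 4 was dim, at 6.97. Control rat 3 was at 9.22 and the averaged control rats 1 and 2 at 9.31. The list's median was 0.32, and 0.20 with the values as deposited, beside -0.16 over all genes there. Of 10 glycolysis genes measured, 0 were apart, and their median was 0.15. With either other scaling 6 of the 10 were apart and higher, so this count depended on the scaling. The share of all genes apart and higher was 6.87% under median centring and 3.26% for the deposited intensities.

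Atp7a, which pumps copper out of the enterocyte toward the blood, was at 13.72, 14.01, 13.82 and 13.73 in Belgrade rats and at 12.41, 12.75, 12.25 and 12.16 in control rats. The difference was 1.48 ± 0.32 (SE, adjusted p = 0.787), and its other 2 probe sets, also apart, differed by 1.10 and 1.90. Over all genes 3.74% were apart and higher and 3.97% apart and lower. Of 11 copper genes measured, Atp7a alone was apart and higher, the median was 0.005 (-0.06 with the values as deposited), and Sod1, copper-zinc superoxide dismutase, was apart and lower by -0.34 (0.01 with median centring). Slc31a1, the copper importer, had a difference of 0.59 with overlapping arrays. Of 14 zinc genes 2 were apart and higher, the exporters Slc30a1 (2.41, with control levels of 5.91 to 7.69) and Slc30a10 (1.91, and 0.56 with the muscle and matrix covariate).

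Alox15, an arachidonate and linoleate lipoxygenase, rose in Belgrade rats and was the only gene that passed the test over all 20 counted samples. It was at 13.32, 13.20, 12.35 and 11.61 in Belgrade rats and at 6.99, 6.24, 8.58 and 8.01 in control rats, a difference of 4.67 ± 0.66 (SE, adjusted p = 0.0197). The control levels lie below 8.99, in the dim range, so the size moved with the pseudocount: it was 3.95 at 176 units and 4.99 at 11 units. It passed in 15 of 23 settings, and in the other 8 its adjusted p was 0.0787 to 0.225, with a difference of 4.11 to 4.81. Those were leaving out control rats 1 and 2, control rat 4, Belgrade rats 1 and 2 or Belgrade rat 3, a fit of only the Belgrade and control samples, a fit without the trend, the muscle and matrix covariate, and the rat number as a replicate block (adjusted p = 0.0823). None of the other 14 lipoxygenase and prostanoid genes measured was apart. Hpgd, which breaks down prostaglandins, came closest (difference 1.18), while Alox5, Alox12 and Ptgs2 had differences of 0.12, 0.28 and 0.44.

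Cholesterol synthesis genes lay higher almost throughout. Of 22 measured, 21 had a positive difference, 13 were apart and higher, against 3.74% of all genes, 0 were apart and lower and 0 were called. The median was 0.76, with 0.64 to 0.89 under the other scalings and 0.72 without control rat 3. Cyp51, lanosterol demethylase, was at 15.69, 15.62, 15.25 and 15.86 in Belgrade rats and at 15.16, 14.98, 14.62 and 14.43 in control rats (difference 0.88 ± 0.29, SE, adjusted p = 0.80). Msmo1, a sterol methyl oxidase, was at 14.72, 14.78, 14.49 and 15.001 in Belgrade rats and at 13.96, 13.93, 12.99 and 13.20 in control rats (difference 1.37 ± 0.48, SE, adjusted p = 0.80). Sqle, squalene epoxidase, Fdft1, squalene synthase, and Sc5d differed by 1.33, 1.19 and 1.13. With muscle and matrix level as a covariate the median was 0.38 and 19 of 22 were positive. The sterol element, searched as TCACNCCAC on both strands, was found in 1.13% of all promoters and in 0 of the 18 of this list that had one. With so rare a match, 18 promoters are too few for a count of 0 to tell the list from all promoters.

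**Figure D3:**
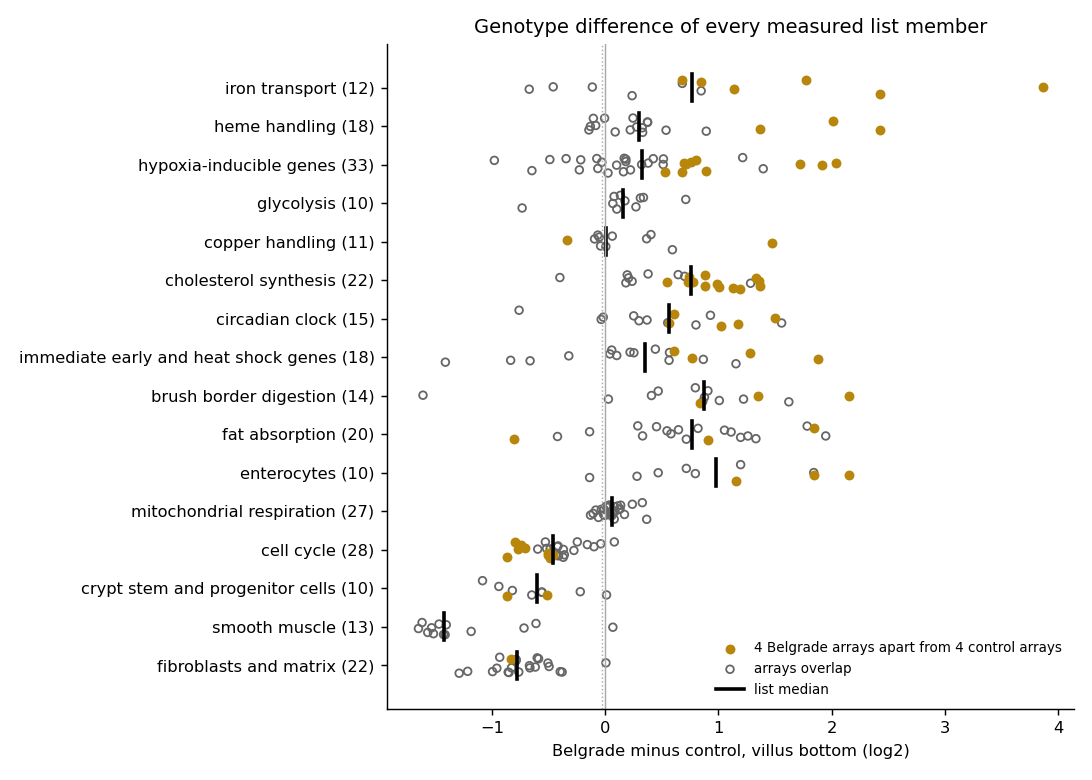
Belgrade minus control difference at the villus bottom (log2) for every measured member of 16 gene lists, 1 point per gene, with the number measured in brackets. Filled points are genes whose 4 Belgrade arrays do not overlap the 4 control arrays, black bars are list medians, and the dotted line is the median over all genes (-0.03). Cholesterol synthesis has 13 filled points of 22, all positive, and cell cycle 10 of 28, all negative, while smooth muscle has the lowest median (-1.43) and 0 filled points.

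Several genes of the mature enterocyte had higher levels in Belgrade rats, with the widest gaps to control rats 3 and 4. Anpep, aminopeptidase N of the brush border, was at 15.89, 15.75, 15.36 and 15.75 in Belgrade rats and at 15.29, 15.27, 11.99 and 13.21 in control rats (difference 2.15 ± 0.84, SE, adjusted p = 0.80). Apoa1, an apolipoprotein of exported fat, was at 16.34, 16.32, 15.43 and 15.94 in Belgrade rats and at 15.13, 15.35, 12.88 and 14.05 in control rats (difference 1.84 ± 0.72, SE, adjusted p = 0.80). In both genes control rat 3, the array with the most muscle and matrix, had the lowest level of all 8 arrays. Over all genes 3.74% were apart and higher, and 3.97% apart and lower. Brush border digestion (14 genes, 3 apart and higher) had a median of 0.87, which was 0.40 without control rat 3 and -0.06 with muscle and matrix level as a covariate. For fat absorption (20 genes, 2 apart and higher, 1 lower) these medians were 0.77, 0.38 and -0.01, and for enterocyte markers (10 genes, 3 apart and higher) 0.98, 0.34 and -0.10. Nutrient transporters (21 genes, 1 apart) had 0.47, 0.19 and -0.18. The same covariate left Cybrd1 at 3.00, Slc11a2 at 1.35, Slc40a1 at 0.93, Heph at 0.40 and Alox15 at 4.55.

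Genes of dividing cells lay lower in Belgrade rats. All 28 cell cycle genes measured were above the dim limit in all 8 arrays, 27 had a negative difference, 10 were apart and lower, against 3.97% of all genes, 0 were apart and higher and 0 were called. Plk1, a mitotic kinase, was at 11.66, 11.91, 11.51 and 11.56 in Belgrade rats and at 12.30, 12.73, 12.51 and 12.43 in control rats (difference -0.87 ± 0.21, SE, adjusted p = 0.80). Top2a, the topoisomerase of replicating DNA, was at 13.04, 13.41, 13.24 and 13.25 in Belgrade rats and at 14.12, 13.99, 14.05 and 13.99 in control rats (difference -0.80 ± 0.20, SE, adjusted p = 0.80, and -0.46 with median centring). Control rats 1 to 4 were alike in both genes, including control rat 3. Mki67, the proliferation antigen, differed by -0.46, and Ccnb1, cyclin B1, by -0.71. The median of the list was -0.46, with -0.48 and -0.24 under the other scalings, -0.45 without control rat 3 and -0.33 with the muscle and matrix covariate. With median centring 5 of the 28 were apart and lower and 1 apart and higher, against 1.94% and 6.87% of all genes. In that setting 211 probe sets were apart and lower by at least 1, against 243 with quantile normalisation. The median difference over all probe sets was 0.09 there.

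Of 10 stem and progenitor cell genes measured, 9 had a negative difference and 2 were apart and lower, against 3.97% of all genes. Smoc2 was at 14.24, 14.24, 14.79 and 14.44 in Belgrade rats and at 14.99, 15.01, 15.85 and 15.23 in control rats, a difference of -0.87 that was -0.36 with the muscle and matrix covariate. Slc12a2, the sodium-potassium-chloride transporter of crypt cells, had a difference of -0.52 that was -0.18 with median centring. Lgr5, the stem cell receptor, had a difference of -1.08 with overlapping arrays, at 9.92, 10.59, 10.47 and 9.58 in Belgrade rats and 10.64, 10.50, 10.96 and 12.03 in control rats. The list's median was -0.61 and was -0.17 with the muscle and matrix covariate.

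A few stress and clock genes did not overlap between the groups, where 3.74% of all genes were apart and higher. Trib3, a pseudokinase of the amino acid and endoplasmic reticulum stress response, was at 10.66, 10.41, 11.56 and 11.34 in Belgrade rats and at 9.85, 8.77, 8.79 and 9.23 in control rats (difference 2.03 ± 0.52, SE, adjusted p = 0.80), and its list had 4 of 16 apart and higher, 1 apart and lower and a median of 0.04. Among 18 immediate early and heat shock genes 4 were apart and higher, Klf4, Junb, Fos and Klf6, with differences of 0.61, 1.28, 1.88 and 0.76. Without control rat 3 Fos differed by 1.19. Among 15 clock genes 5 were apart and higher. Bhlhe40, a repressor of the clock that hypoxia also induces, was at 12.30, 12.23, 12.90 and 13.21 in Belgrade rats and at 11.16, 11.35, 11.16 and 11.47 in control rats (difference 1.499 ± 0.39, SE, adjusted p = 0.80). Per2, Nr1d2, Cry1 and Npas2 differed by 1.02, 1.17 (0.69 without control rat 3), 0.56 and 0.60, and Bmal1 by -0.76 with overlapping arrays. The time of day of sampling is not given. Areg, a ligand of the EGF receptor, was apart and higher (difference 2.66), with 2 of 4 control arrays at 5.95 and 5.89. The 27 mitochondrial respiration genes had a median of 0.06 and 0 apart, and the 18 oxidative stress genes a median of 0.22 and 1 apart, Txnrd1 (0.45).

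Probe sets with 1 symbol, no overlap and a mean above 8.99 in the higher group were ordered by p. The 12 most clearly higher were those of Alox15, Egln3, Alas2, Nedd9, Atp7a, Cybrd1, Tfrc, Alas1, Slc11a2, Ankh, Il36b and Dcaf17, and only that of Alox15 was called. Those of Nedd9, Tfrc, Slc11a2 and Dcaf17 were not the gene's brightest. Nedd9, a scaffold of focal adhesions, was at 12.28, 12.44, 12.61 and 12.75 in Belgrade rats and at 10.19, 10.79, 9.79 and 10.45 in control rats in its less bright probe set (difference 2.33 ± 0.49, SE, adjusted p = 0.680) and differed by 1.58 in the brightest. Ankh, a transporter linked to pyrophosphate export, differed by 1.59 and 1.44 in its 2 probe sets. Il36b, an interleukin of the IL-1 family, and Dcaf17 lay near the dim limit of 8.99, at 8.53 to 9.60 and 8.22 to 9.24 in Belgrade arrays. Their control arrays were at 6.13 to 7.60 and 6.09 to 8.21, so both were ranked through their Belgrade levels alone. At the top Il36b differed by -1.05.

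By the same order the 12 most clearly lower were Plk1, Siglec5, Ift80, Top2a, Srrm1, Ddc, Slc9a5, Epb41l1, Tmpo, Foxo1, Stmn1 and Nup37, all with an adjusted p of 0.80. Stmn1, a microtubule regulator of dividing cells, was at 13.70, 13.69, 13.83 and 14.01 in Belgrade rats and at 14.21, 14.29, 15.03 and 14.78 in control rats (difference -0.84, and -0.45 with the muscle and matrix covariate). Tmpo, a protein of the nuclear lamina, and Foxo1, a transcription factor restrained by insulin signalling, differed by -0.68 (-0.34 with median centring) and -1.03 (-0.63 without control rat 4). Ddc, the decarboxylase that makes dopamine and serotonin, differed by -1.08 in the probe set named and by -0.33, with overlap, in its brightest. Brightest probe sets of Srrm1 and Epb41l1 overlapped between the groups too, and Nup37 and Foxo1 each had another probe set with a positive difference (0.09 and 0.63). Siglec5, Slc9a5, Ift80 and Epb41l1 had levels of at most 9.09 in all 4 Belgrade arrays.

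The genotype difference at the villus bottom was set against that at the top of the same rats, by a test on bottom minus top within each rat. In limma 0 of 31042 probe sets passed (lowest adjusted p = 0.115), while 1771 had an unadjusted p under 0.05. Cybrd1 had a difference of 3.87 at the bottom and 0.78 at the top, where levels were 17.51, 17.57, 17.41 and 17.67 in Belgrade rats and 16.90, 16.93, 16.53 and 16.83 in control rats. The bottom difference exceeded the top one by 3.09 ± 0.86 (SE, unadjusted p = 0.00240, adjusted p = 0.795). For Slc11a2 the excess was 1.89 ± 0.79 (SE, adjusted p = 0.855) in the brighter probe set and 1.05 (adjusted p = 0.917) in the other. For Slc40a1 and Heph it was 1.46 and 1.18 (adjusted p = 0.835 and 0.866). At the top the brightest probe sets of these genes were near the upper end of the intensity scale, with Belgrade levels up to 17.67 for Cybrd1. Whether that limits the top difference was not tested. Alox15 had 4.67 at the bottom and 4.66 at the top, Egln3 1.72 and 1.45, and Atp7a 1.48 and 1.69. In the brightest probe set of Tfrc the bottom difference was smaller than the top one, 0.68 against 1.42 (bottom minus top -0.74, adjusted p = 0.958). Its less bright probe set had 1.78 at the bottom and 1.68 at the top.

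Among the lists, median differences at the bottom and top were 0.76 and 0.84 for cholesterol synthesis, 0.32 and 0.47 for hypoxia-inducible genes, and 0.76 and 0.27 for iron transport. Brush border digestion had 0.87 and -0.41, fat absorption 0.77 and -0.56, and cell cycle -0.46 and -0.07. For the bottom minus top test, only probe sets with 1 symbol and a bottom mean above 8.99 in at least 1 of the 2 groups were ranked. Among these the smallest p with a positive value belonged to Slc43a2, an amino acid transporter (3.21), Mical1 (1.90), Wipf3 (1.47), B4galt5 (1.26) and Fmo5 (2.92). Slc43a2, B4galt5 and Fmo5 differed by -3.29, -1.58 and -2.71 at the top against -0.08, -0.32 and 0.21 at the bottom. With a negative value the genes of smallest p included Ncapd2, a condensin subunit (-1.89), Adra2a, an adrenergic receptor (-3.001), Atf5, a stress transcription factor (-2.63) and Sars1, a tRNA synthetase (-1.47). Their adjusted p was 0.629 to 0.757, so none passed.

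**Figure D4:**
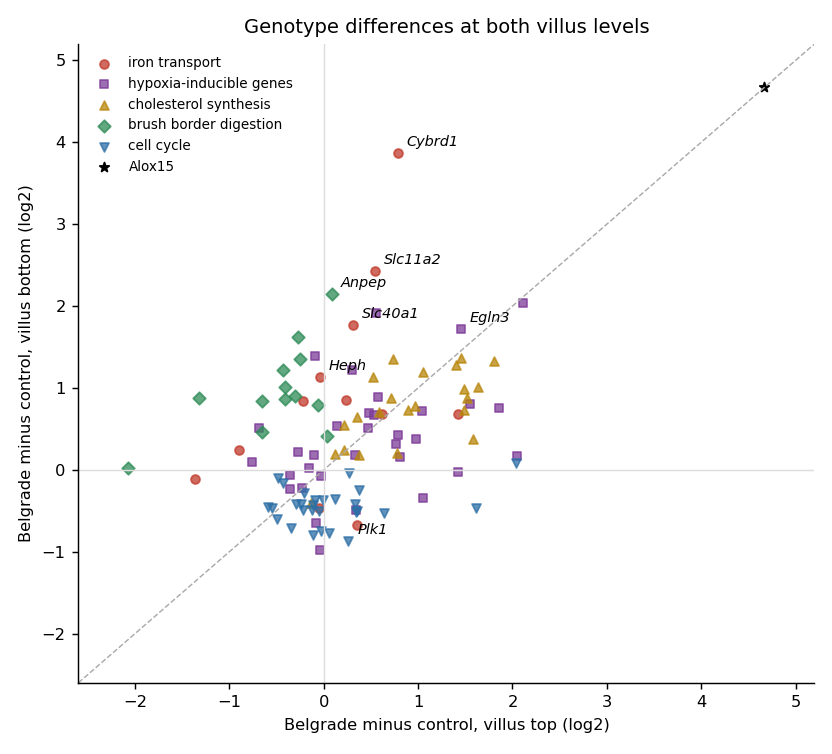
Belgrade minus control difference at the villus top (horizontal, log2) and bottom (vertical, log2), 1 point per gene, for members of 5 lists and Alox15, with the line of equal differences dashed. Cybrd1 (0.78 at the top, 3.87 at the bottom) lies far above the line, Alox15 (4.66 and 4.67) on it, most brush border genes above it and cell cycle genes mostly below 0 at the bottom.

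Levels in the other villus bottom groups, given as means ± SD without a test, place the 2 groups among them. Cybrd1 was at 15.77 ± 0.09 in unfed Belgrade rats (n = 3), 14.07 ± 1.14 in Belgrade rats fed iron for 3 days (n = 4), 14.47 ± 0.55 in those fed iron for 6 days (n = 3), 15.45 ± 1.35 in iron-deficient Wistar rats (n = 4), 14.08 ± 2.41 in iron-repleted Wistar rats (n = 3) and 11.90 ± 0.10 in control rats (n = 3). The wide SD of the last but one came from iron-repleted rat 3, at 11.48. Egln3 followed with 13.02 ± 0.21, 12.10 ± 0.32, 12.11 ± 0.18, 12.78 ± 0.39, 13.14 ± 0.37 and 11.30 ± 0.65 in the same order of groups. Atp7a was at 13.80 ± 0.07, 13.17 ± 0.22, 12.90 ± 0.26, 13.80 ± 0.30, 13.12 ± 1.04 and 12.33 ± 0.22 in that order. Alox15 was at 12.41 ± 0.83, 12.25 ± 0.63 and 12.43 ± 0.44 in the 3 Belgrade groups, 11.23 ± 0.82 and 10.68 ± 1.66 in Wistar rats with iron deficiency or after repletion and 7.73 ± 1.01 in control rats, which had the lowest mean of the 6 groups in each of these 4 genes. Alox15 differed by less than 1 SD among the Belgrade groups, while for Cybrd1, Egln3 and Atp7a the unfed Belgrade samples all lay above those of both iron-fed Belgrade groups.

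**Figure D5:**
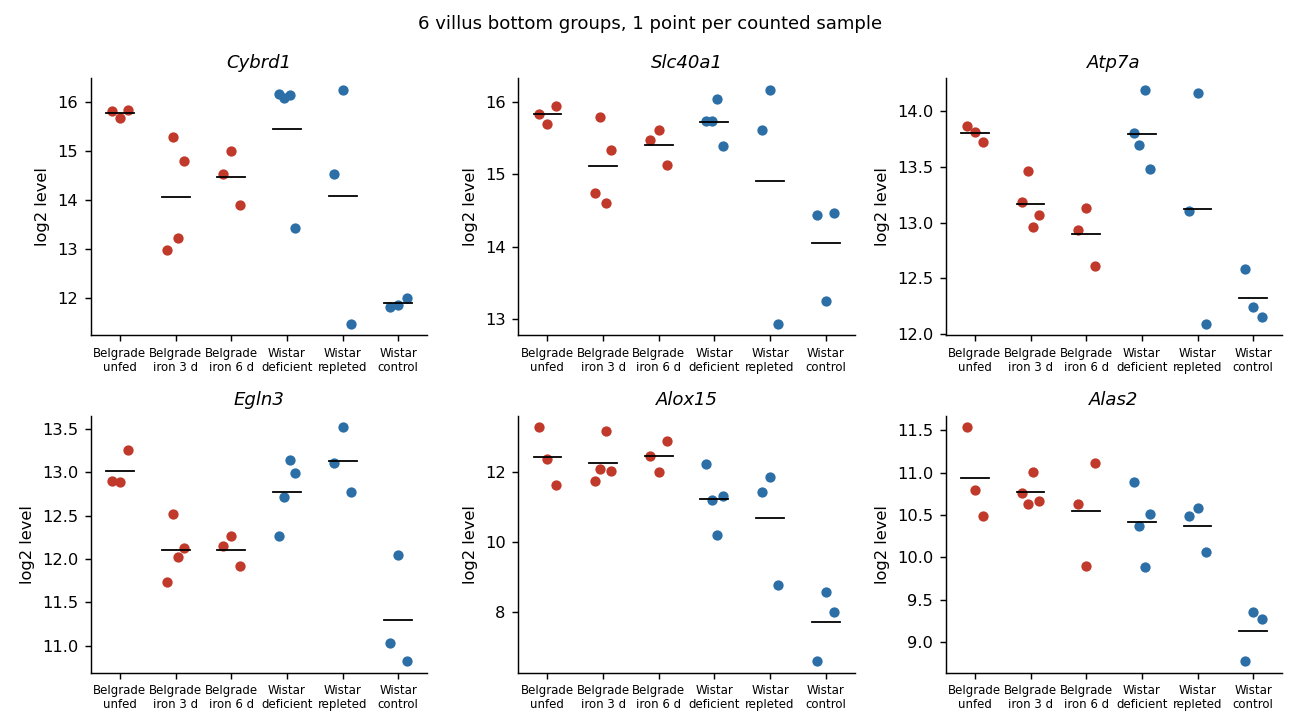
Log2 level of 6 genes in the 6 villus bottom groups, 1 point per counted sample and bars at group means, Belgrade groups in red and Wistar groups in blue with control rats on the right. Control rats have the lowest mean in each panel, and iron-repleted rat 3 lies at 11.48 for Cybrd1, far below the other 2 iron-repleted rats.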

How the data were processed

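Each deposited value was the intensity of 1 of 31099 probe sets on 1 array on a linear scale, and the algorithm that made these signals, like detection calls, was not given in the sources used here. After 57 control probe sets were left out, 31042 were tested. Intensities of 44 villus arrays were turned into log2 with a pseudocount of 44, their 10th percentile, and the log2 values were then quantile normalised. Near-identical arrays were averaged, and limma 3.58.1 in R 4.3.3 (lmFit, eBayes with a trend) was fitted to 20 counted samples of 6 villus bottom groups, with Benjamini-Hochberg adjustment over all probe sets. Bottom minus top was fitted within rats. 20826 probe sets had 1 gene symbol, 436 had several and 9780 had none in the platform annotation, and a list used the brightest probe set of each gene.

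Named genes were 6 fixed ones, up to 12 separating probe sets in each direction by p, the members of lowest p in each of 37 lists, the brightest markers, and up to 5 each way in the bottom minus top test. The members and lists were chosen with earlier results of these data known. Alternatives changed scaling, pseudocount, filter, near-identical arrays, samples, trend and covariates, or left out samples. The number of arrays limits the precision.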

Additional observations from a re-analysis of the deposited data

How the results depend on the processing

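The count of 1 called probe set was 3 with rats 1 and 2 counted separately, 2 with rat 1 of each near-identical pair, 4 with only the 2 groups, 15 without iron-repleted rat 3 in the spread, and 0 with no trend or with the muscle and matrix covariate (lowest adjusted p = 0.225 and 0.0787). It was 0 to 2 with a sample left out, with 0 without control rats 1 and 2, control rat 4, Belgrade rats 1 and 2 or Belgrade rat 3, and 2 without control rat 3. With the rat number as a replicate block it was 0 (lowest adjusted p = 0.0823). Deviations of same-numbered arrays from their group means had correlations of 0.18, 0.23, 0.19 and 0.095 for numbers 1 to 4. Those for numbers 1 and 2 came from near-identical arrays and are not separate values. No correlation of different-numbered arrays is given beside them. Only 3 of the 4 correlations were over the limit of 0.1 required of each, so whether the numbers pair the rats is not settled. Alox15, the single call, was lost under the block. The 579 probe sets that separated the groups by at least 1 were 272 with the larger pseudocount and 685 to 2499 with a sample left out, where fewer arrays had to separate. Bottom minus top had 1 call with the larger pseudocount and 1 with rats counted separately, and 0 to 0 with a sample left out.

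Of 3557 values of 162 gene results over 22 settings, 3515 kept direction and side of the threshold, 18 newly passed, 8 no longer passed and 16 changed sign. With the values as deposited Cd24 was at 0.0026. With median centring Cd24, Agr2, Clca1, Pcbp2 and Sod1 were at 0.25, 0.20, 0.15, 0.064 and 0.013. With the muscle and matrix covariate Hk1, Prdx6, Gclc, Cox5a, Agr2, Prph and Gap43 were at 0.098, -0.0059, -0.059, -0.0042, 0.043, 0.23 and 0.15. With a sample left out Cela3b spanned -3.07 (without Belgrade rat 3) to 0.37 (without control rats 1 and 2), Pyy -1.25 (without control rat 3) to 0.036 (without control rat 4) and Cd3d -1.33 (without Belgrade rats 1 and 2) to 0.052 (without Belgrade rat 4). Apart from the settings' own construction, the cause was not tested. Dim probe sets, under about 8.99, carry the least certain differences.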

Other observations

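Of 19 genes of antigen-presenting cells measured, 14 had a negative difference and 4 were apart and lower in Belgrade rats, against 3.97% of all genes, with a median of -0.32. Cd74, the invariant chain of MHC class II, was at 14.95, 14.90, 15.01 and 14.57 in Belgrade rats and at 15.32, 15.28, 15.26 and 15.20 in control rats (difference -0.42 ± 0.29, SE, adjusted p = 0.827 in limma), a difference that was -0.068 with median centring. RT1-Da, a class II chain, and Fcer1g, an Fc receptor subunit, differed by -0.39 and -0.52 (Fcer1g by -0.21 without Belgrade rat 4), and Itgam, an integrin of myeloid cells, by -1.78 with dim Belgrade levels of 6.26 to 7.06.

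Single members of other cell lists were apart too, where 3.74% of all genes were apart and higher and 3.97% apart and lower. Sdc1, a plasma cell proteoglycan that epithelium also makes, was at 13.78, 13.73, 13.82 and 13.61 in Belgrade rats and at 13.07, 12.90, 13.18 and 13.15 in control rats, while Mzb1, a plasma cell chaperone, differed by -0.49. Sst, somatostatin of D cells, differed by -0.61, and Avil, a tuft cell gene, by -0.36. Tek and Flt1, receptors of endothelial cells, differed by -0.51 and 0.52, in opposite directions. Gzma, a granzyme of cytotoxic lymphocytes, and Hdc, which makes histamine, differed by 1.26 and 1.19 (0.25 and 0.57 with the muscle and matrix covariate), with control rat 3 the lowest array in both. Of 17 mast cell and eosinophil genes measured, 2 were apart and higher, Hdc among them, and 1 was apart and lower. None of these passed the test, and the lists of Paneth and goblet cells had 0 members apart.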
